A study of Drosophila melanogaster with 10 samples.

Results

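The trypsin genes of the cluster on chromosome arm 2R were followed through 5 genotypes of whole Drosophila melanogaster larvae. The 10 genes were taken by their FlyBase symbols: alphaTry, betaTry, gammaTry, deltaTry, epsilonTry, zetaTry, etaTry, thetaTry, iotaTry and lambdaTry. They are 10 of 17735 genes in the count tables, and 9 of them had enough reads to be tested among 10585 genes. The larvae carried mutations of up to 3 zinc-finger DNA-binding proteins, CTCF, Su(Hw) and Pita, and the study's title names their cooperation in bringing the partner protein CP190 to regulatory elements. The CTCF mutant carried dCTCFdeltaCP. The CTCF Su(Hw) mutant carried dCTCFdeltaCP and SuHwdelta114, and the CTCF Pita mutant carried dCTCFdeltaCP and PitadeltaCP1. The triple mutant carried all 3 mutations, and wild type was labelled dCTCFwt. All were third-instar larvae of the strain y1w1118, kept at 25 °C, and each group had 2 libraries made from 100 mg of larvae per extraction. Every mutant genotype carried dCTCFdeltaCP, so the Su(Hw) and Pita mutations were seen only on that background. The labels give no sex, batch or age within the instar, and do not say how each allele was made.

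Trypsins are serine proteases that cut proteins after lysine or arginine. In insects they are made by the midgut epithelium as inactive precursors, secreted into the gut lumen and activated there to digest dietary protein. In the fly, trypsins, the related Jonah proteases and chymotrypsin-like enzymes digest protein together in the larval gut, and carboxypeptidases trim the resulting peptides. All 10 genes are annotated as trypsins or trypsin-like, and no separate role in digestion is known with confidence for single members, so they are described by position and level.

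The 10 genes lie within 20698 bp of dm6, 2R:11336840-11357537. From the start of the span the order is lambdaTry, kappaTry, zetaTry, etaTry, thetaTry, alphaTry, epsilonTry and betaTry, then gammaTry, CG30031, CG30025, deltaTry, CG13202 and iotaTry, with 2 copies of the transposon INE-1 after betaTry and after CG30031. The span holds 14 protein-coding genes, of which kappaTry, CG30031, CG30025 and CG13202 are the 4 that are not on the list. Of the 10 genes, 6 lie on the minus strand and 4 on the plus strand, and all 10 have a single exon of 810 to 1071 bp, so every count comes from exonic reads. AlphaTry (FBgn0003863) is at 2R:11344260-11345119, epsilonTry (FBgn0010425) at 2R:11345237-11346066, betaTry (FBgn0010357) at 2R:11346325-11347395 and thetaTry at 2R:11341714-11342760. DeltaTry (FBgn0010358; 2R:11355319-11356128) overlaps CG13202, on the opposite strand, by 15 bp.

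GammaTry (FBgn0010359; 2R:11349061-11349870) could not be followed. It had 2 and 0 reads in CTCF-mutant larvae, 0 in both libraries of CTCF Su(Hw) larvae, 0 in both of CTCF Pita larvae, 2 and 0 in triple-mutant larvae, and 1 and 0 in wild type. Its neighbours CG30031 and CG30025 had 0 to 2 reads in every library. The gammaTry, deltaTry, CG30031 and CG30025 genes are near-identical copies of each other, and a read that fits several places was not counted, so low counts here say nothing of how much these genes were expressed, and deltaTry is uncertain for the same reason. Reads over both deltaTry and CG13202 were not counted for either gene. DeltaTry had 5 to 23 reads per library in the unstranded counts used here, and 12 to 269 when counted by strand. Nearly the same number of reads was then added for CG13202, so these added reads cannot be assigned to deltaTry.

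**Figure D1:**
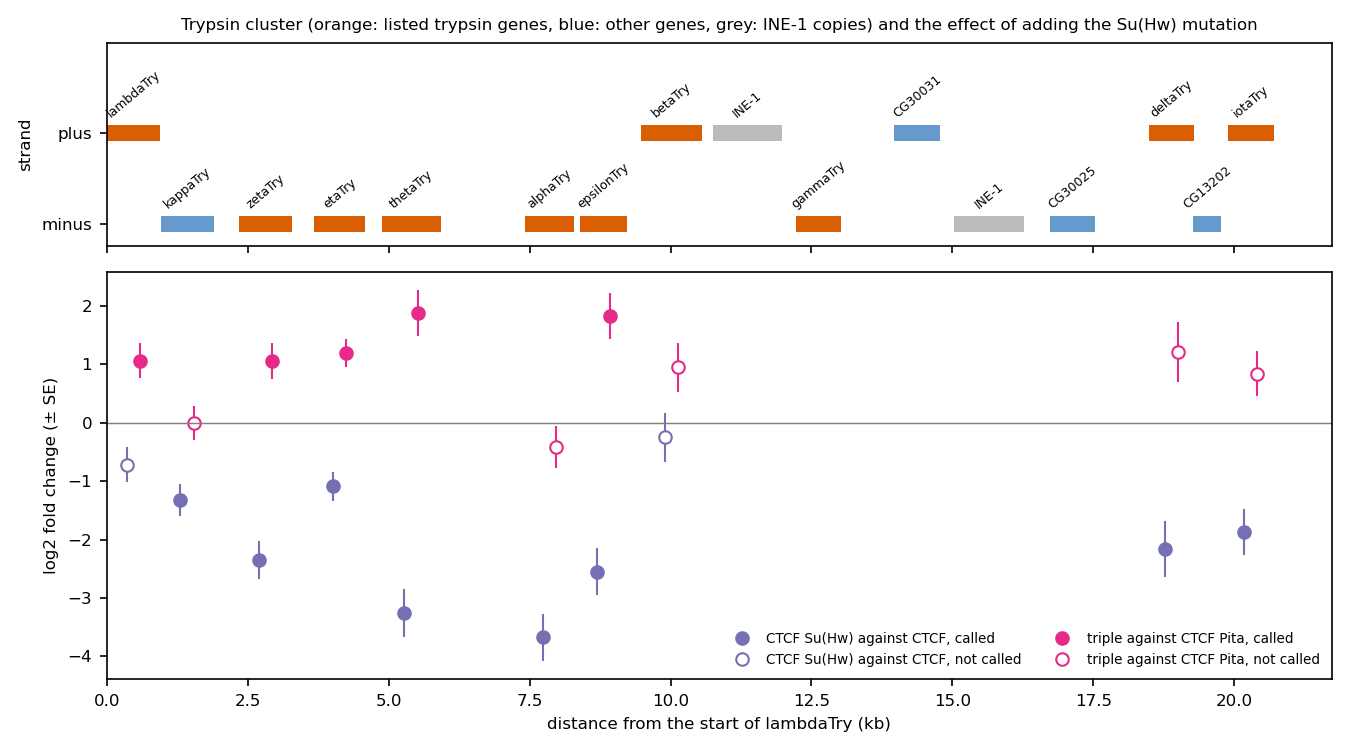
Genes along the cluster (top, distance from the start of lambdaTry in kb, by strand) and the log2 fold change of each gene with its standard error when the Su(Hw) mutation was added to CTCF-mutant larvae (violet) or to CTCF Pita larvae (pink). Filled points were called; the violet points lie between -3.67 (alphaTry) and -0.25 (betaTry) for the list genes, while the pink points of 8 of the 9 list genes lie above 0.

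Between 18856997 and 24391317 reads were recorded per library, and 5670793 to 8220126 were assigned to genes, since 50.9% to 65.5% mapped to several places. A level in CPM is a read count brought to a library size shared by all samples, with TMM factors that correct for composition, so 1 read stands for 0.0927 to 0.289 CPM. A gene was called changed at an adjusted p under 0.05 in the quasi-likelihood F-test of edgeR, adjusted over all 10585 genes by the Benjamini-Hochberg method. The libraries of CTCF Su(Hw) larvae differed by little more than counting noise (chi-square per degree of freedom 1.78, against 14.3 to 41.4 in the other groups), and the labels do not say whether their RNA was extracted separately. Mitochondrial transcripts took 34.6% and 24.2% of assigned reads in CTCF-mutant larvae, against 8.67% to 18.7% in the other libraries. Their part in the results was not tested. The larvae were sequenced whole, and 12 markers of midgut cells, the source of trypsins, had reads in every library. In such samples fewer midgut cells and less RNA per cell cannot be told apart.

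The 10 trypsin genes together stood at 4397 and 2708 CPM in CTCF-mutant larvae and at 869.8 and 911 CPM in CTCF Su(Hw) larvae. They had 1398 and 1116 CPM in CTCF Pita larvae, 2077 and 3983 CPM in triple-mutant larvae, and 1858.5 and 1044 CPM in wild type. The sum in CTCF Su(Hw) larvae was below that of every other library. Libraries of 1 genotype were offset, with triple 2 above triple 1 in 8 of the 9 tested genes and wild type 1 above wild type 2 in 8 of 9. The ratio of the higher to the lower library was 1.36 (deltaTry) to 2.25 (betaTry) in triple-mutant larvae. In wild type it was 1.02 (alphaTry) to 2.30 (thetaTry). CTCF 1 was also above CTCF 2 in every tested trypsin gene but deltaTry, with ratios up to 2.27 (alphaTry). The trypsin genes of a library share this offset, so they are not independent measurements of a genotype.

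Per kb of exon, epsilonTry was the most abundant trypsin transcript in all 5 groups. Its mean level was 2145.5 CPM per kb in CTCF-mutant larvae, 365 in CTCF Su(Hw) larvae, 597 in CTCF Pita larvae, 2119 in triple-mutant larvae and 833 in wild type. The gene in second place changed with the genotype. It was alphaTry in CTCF-mutant larvae (590.2 CPM per kb, overlapping zetaTry at 405) and in CTCF Pita larvae (375, above betaTry at 127), thetaTry in triple-mutant larvae (303, overlapping alphaTry at 281), and betaTry in CTCF Su(Hw) larvae (332, above zetaTry at 79.5) and in wild type (255, overlapping zetaTry at 224). DeltaTry was the lowest of the 9 everywhere, at 1.22 to 6.29 CPM per kb.

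**Figure D2:**
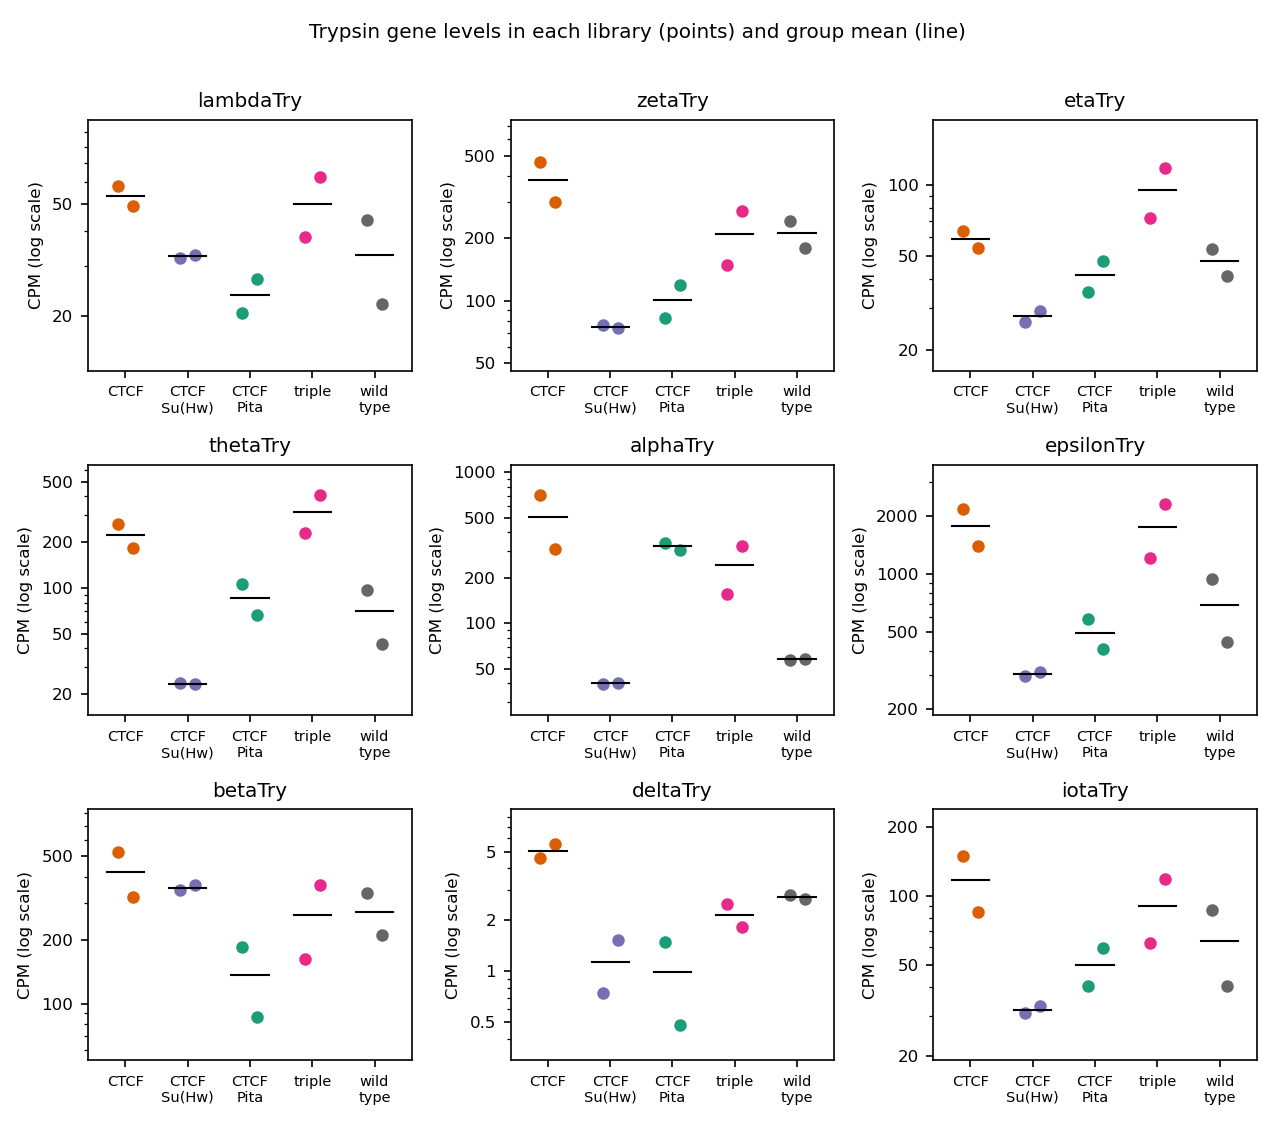
Level of each of the 9 tested trypsin genes in CPM (log scale, a scale per panel) in every library (points), with the group mean as a line, for the CTCF, CTCF Su(Hw), CTCF Pita and triple mutants and wild type. AlphaTry lies at 39.2 to 58.3 CPM in CTCF Su(Hw) larvae and wild type and at 157 to 704 CPM in the other groups, whereas betaTry lies at 345 and 366 CPM in CTCF Su(Hw) larvae and at 211 and 336 CPM in wild type.

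In CTCF-mutant larvae against wild type 2 of 9 trypsin genes were called, both higher. Of all genes tested, 2.2% were called higher and 1.17% lower. AlphaTry had 704 and 311 CPM in CTCF-mutant larvae, against 57.2 and 58.3 CPM in wild type. Both mutant libraries were several times above both wild-type ones (log2 fold change 3.14, SE 0.39, edgeR adjusted p = 0.00198), and the call stood under all 18 alternatives. ThetaTry had 263 and 184 CPM in CTCF-mutant larvae, against 97.5 and 42.5 CPM in wild type (1.67, SE 0.39, edgeR adjusted p = 0.0432). This call was lost without CTCF 1 (adjusted p = 0.285), CTCF 2 (0.092), either CTCF Su(Hw) library (0.0979 and 0.0966) or wild type 2 (0.247), which leaves 1 called gene in each case. The other 7 genes were not called, with adjusted p from 0.085 for epsilonTry to 0.5115 for etaTry. Over the 9 genes the median log2 fold change was 0.88, against -0.02 over all genes tested.

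In CTCF Su(Hw) larvae, 4 of 9 trypsin genes were called lower than in wild type and none higher, where 17.4% of all genes tested were called lower and 15.8% higher. ZetaTry had 76.6 and 73.9 CPM in the double mutant, against 243 and 181 CPM in wild type (log2 fold change -1.49, SE 0.31, edgeR adjusted p = 0.00486). ThetaTry had 23.5 and 23.2 CPM in the double mutant, against 97.5 and 42.5 CPM in wild type (-1.58, SE 0.40, edgeR adjusted p = 0.0118). EpsilonTry fell to 296 and 311 CPM, against 938 and 446 CPM in wild type (-1.19, SE 0.39, edgeR adjusted p = 0.0356), and etaTry to 26.1 and 29.2 CPM, against 53.4 and 41.2 CPM (-0.77, SE 0.24, edgeR adjusted p = 0.0311). In all 4 genes both mutant libraries were below both wild-type ones. AlphaTry, at 39.2 and 40.4 CPM in the double mutant, and betaTry, at 345 and 366 CPM, were not called (adjusted p = 0.285 and 0.507). The epsilonTry, thetaTry and etaTry calls were lost without CTCF Su(Hw) 1, CTCF Su(Hw) 2 or wild type 1. Without wild type 1 their log2 fold changes shrank to -0.56, -0.87 and -0.58. Without CTCF Su(Hw) 1 they stayed at -1.16, -1.60 and -0.70. Without CTCF Su(Hw) 2 they stayed at -1.23, -1.57 and -0.86, and the zetaTry call was lost too, at -1.47. With the libraries of this mutant summed to 1 sample all these calls were lost, at -1.20, -1.59, -0.78 and, for zetaTry, -1.50. DESeq2, run on all 10 libraries, called 5.

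Against wild type CTCF Pita larvae had 1 trypsin gene called higher and 2 called lower, beside 18.6% and 19.2% of all genes tested. AlphaTry had 342 and 303 CPM in CTCF Pita larvae, against 57.2 and 58.3 CPM in wild type. It rose by 2.48 on the log2 scale (SE 0.38, edgeR adjusted p = 0.000917) and was called under all 18 alternatives. ZetaTry had 82.6 and 120 CPM in the mutant, against 243 and 181 CPM in wild type (log2 fold change -1.06, SE 0.31, edgeR adjusted p = 0.0194), with no overlap. DeltaTry rested on 12 and 5 reads in the mutant, against 17 and 17 in wild type (-1.52, SE 0.52, edgeR adjusted p = 0.0387). The zetaTry call was lost without CTCF Pita 1 (adjusted p = 0.119) or wild type 1 (0.133). The deltaTry call was lost under 11 of 18 alternatives, among them the removal of any of CTCF 1 and 2, CTCF Su(Hw) 1 and 2, CTCF Pita 2 and wild type 1 and 2 (adjusted p = 0.0518 to 0.245), and without wild type 1 alphaTry was the 1 gene called. The median over the 9 genes was -0.47, against 0.00 over all genes tested. With library totals as scaling it was 0.04, against 0.48 over all genes.

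In triple-mutant larvae 4 of 9 trypsin genes were called higher than in wild type and none lower, where 10.9% of all genes tested were called higher and 10.3% lower. ThetaTry had 229 and 406 CPM in triple-mutant larvae, against 97.5 and 42.5 CPM in wild type (log2 fold change 2.18, SE 0.39, edgeR adjusted p = 0.00258). AlphaTry had 157 and 326 CPM in triple-mutant larvae, against 57.2 and 58.3 CPM in wild type (2.06, SE 0.38, edgeR adjusted p = 0.00298). Both triple libraries were above both wild-type ones in each gene, and both calls stood under all 18 alternatives. EpsilonTry had 1204 and 2314 CPM in triple-mutant larvae, against 938 and 446 CPM in wild type (1.35, SE 0.39, edgeR adjusted p = 0.029), and etaTry had 72.6 and 118 CPM, against 53.4 and 41.2 CPM (1.00, SE 0.24, edgeR adjusted p = 0.0121). These 2 calls were lost without triple 2 (adjusted p = 0.184 and 0.0763) and without wild type 2 (0.191 and 0.111), which left 2 genes each time. The epsilonTry call was also lost without either CTCF Su(Hw) library (0.0582 and 0.0573). ZetaTry, at 149 and 271 CPM, and betaTry, at 163 and 366 CPM, overlapped wild type, and iotaTry and lambdaTry did as well.

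**Figure D3:**
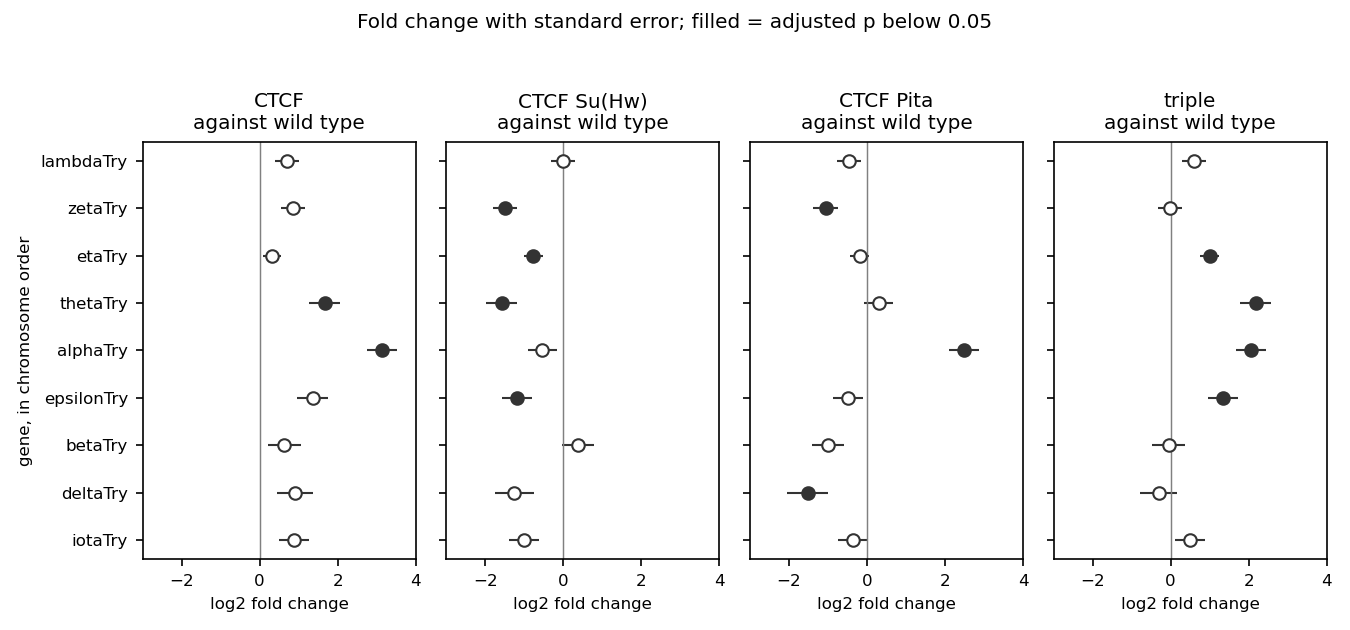
Log2 fold change against wild type of the 9 tested trypsin genes in chromosome order (points, with the standard error as bars) in CTCF, CTCF Su(Hw), CTCF Pita and triple-mutant larvae, called genes filled. AlphaTry is called higher in 3 of the 4 comparisons (3.14, 2.48 and 2.06), and thetaTry lies at 1.67, -1.58, 0.30 and 2.18.

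Adding the Su(Hw) mutation to CTCF-mutant larvae was followed by 7 of 9 trypsin genes called lower and none called higher. Of all genes tested, 21.4% were called lower and 20% higher. AlphaTry had 39.2 and 40.4 CPM in CTCF Su(Hw) larvae, against 704 and 311 CPM in CTCF-mutant larvae (log2 fold change -3.67, SE 0.40, edgeR adjusted p = 0.000102). ThetaTry fell by 3.26 (SE 0.41, edgeR adjusted p = 0.000217), epsilonTry by 2.55 (SE 0.40, edgeR adjusted p = 0.000728) and zetaTry by 2.35 (SE 0.32, edgeR adjusted p = 0.000307). DeltaTry, iotaTry and etaTry were called lower as well, by 2.16, 1.87 and 1.09. BetaTry was the gene with the smallest difference. It had 345 and 366 CPM in CTCF Su(Hw) larvae, against 523 and 321 CPM in CTCF-mutant larvae, and the libraries overlapped (adjusted p = 0.655). LambdaTry was not called either (adjusted p = 0.0776). The calls of deltaTry and etaTry were lost without CTCF Su(Hw) 1 (adjusted p = 0.0606 and 0.053). Over the 9 genes the median was -2.16, against 0.06 over all genes. With library totals as scaling these medians were -1.11 and 1.12, and 4 trypsin genes were called lower and 1 higher. The gene called higher was betaTry (0.85, edgeR adjusted p = 0.0369), and the calls of deltaTry, iotaTry and etaTry (-1.11, -0.77 and -0.02) were lost.

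Adding the Pita mutation to CTCF-mutant larvae was also followed by 7 of 9 trypsin genes called lower and none called higher. Over all genes tested, 22.6% were called lower and 21.4% higher. The genes outside the calls were alphaTry, with 342 and 303 CPM in CTCF Pita larvae, against 704 and 311 CPM in CTCF-mutant larvae (adjusted p = 0.163), and etaTry (adjusted p = 0.111). EpsilonTry had 584 and 407 CPM in CTCF Pita larvae, against 2163 and 1398.5 CPM in CTCF-mutant larvae (log2 fold change -1.85, SE 0.39, edgeR adjusted p = 0.00351). ZetaTry fell by 1.92 (SE 0.31, edgeR adjusted p = 0.000808). BetaTry had 186 and 86.4 CPM in CTCF Pita larvae, against 523 and 321 CPM in CTCF-mutant larvae (-1.63, SE 0.43, edgeR adjusted p = 0.0107), with no overlap. The remaining calls were deltaTry (-2.42), thetaTry (-1.38), iotaTry (-1.23) and lambdaTry (-1.17). Without CTCF 1, the library with the highest trypsin levels of its group, 3 genes were called, and betaTry, thetaTry, iotaTry and lambdaTry were lost (adjusted p = 0.0869, 0.0965, 0.21 and 0.0664). With library totals as scaling 3 genes were called lower (zetaTry, epsilonTry and deltaTry) and 1 higher (etaTry, 0.57, edgeR adjusted p = 0.0422), and the median was -0.30, against 1.12 over all genes. BetaTry and thetaTry were also lost without CTCF Pita 2 (0.0774 and 0.0977), and iotaTry and lambdaTry without CTCF Pita 1 (0.137 and 0.0638).

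The Pita mutation added to CTCF Su(Hw) larvae went with 6 of 9 trypsin genes called higher and none called lower. Of all genes tested, 12.1% were called higher and 10.4% lower. ThetaTry had 229 and 406 CPM in triple-mutant larvae, against 23.5 and 23.2 CPM in CTCF Su(Hw) larvae (log2 fold change 3.76, SE 0.42, edgeR adjusted p = 0.000205). AlphaTry rose by 2.60 (SE 0.39, edgeR adjusted p = 0.00109), epsilonTry by 2.54 (SE 0.40, edgeR adjusted p = 0.00158) and etaTry by 1.77 (SE 0.24, edgeR adjusted p = 0.00066). ZetaTry (1.48) and iotaTry (1.49) were called too, but lost the call without triple 2 (adjusted p = 0.0536 and 0.173), without CTCF Su(Hw) 1 (0.072 and 0.144) and without CTCF Su(Hw) 2 (0.0869 and 0.131). BetaTry had 163 and 366 CPM in triple-mutant larvae, against 345 and 366 CPM in CTCF Su(Hw) larvae, and was not called (adjusted p = 0.491).

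The Su(Hw) mutation added to CTCF Pita larvae went with 5 of 9 trypsin genes called higher and none lower, where 9.87% of all genes tested were called higher and 6.88% lower. ThetaTry had 229 and 406 CPM in triple-mutant larvae, against 106 and 65.8 CPM in CTCF Pita larvae (log2 fold change 1.88, SE 0.39, edgeR adjusted p = 0.0103). EpsilonTry had 1204 and 2314 CPM in triple-mutant larvae, against 584 and 407 CPM in CTCF Pita larvae (1.83, SE 0.39, edgeR adjusted p = 0.0125). The other calls were etaTry (1.19), lambdaTry (1.06) and zetaTry (1.05). AlphaTry had 157 and 326 CPM in triple-mutant larvae, against 342 and 303 CPM in CTCF Pita larvae, and overlapped (adjusted p = 0.434). This count was the least stable of the 9 comparisons when libraries were left out. Fewer genes were also called over all genes tested in each of the settings that follow, and the cause was not tested. Without triple 2 edgeR called 0, with 5 at an unadjusted p under 0.05, and DESeq2 was run only on all 10 libraries. It was 1 without CTCF Pita 2, 2 without CTCF Pita 1, and 3 without either CTCF Su(Hw) library.

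The trypsin genes called when the Su(Hw) mutation was added were lower on the CTCF background and higher on the CTCF Pita background, and the difference between these steps was tested as an interaction. It is the log2 fold change of triple-mutant over CTCF Pita larvae minus that of CTCF Su(Hw) over CTCF-mutant larvae. It was called above 0 for 8 of 9 trypsin genes, where 23.2% of all genes tested were called above 0 and 22.1% below. The estimate was 5.14 for thetaTry (SE 0.56, edgeR adjusted p = 0.000251), 4.38 for epsilonTry (SE 0.56, edgeR adjusted p = 0.000388), 3.40 for zetaTry (SE 0.44, edgeR adjusted p = 0.000397) and 3.25 for alphaTry (SE 0.53, edgeR adjusted p = 0.00088). DeltaTry (3.37), iotaTry (2.72), etaTry (2.28) and lambdaTry (1.78) followed, with adjusted p of 0.000623 to 0.00668. BetaTry was the gene outside the calls (1.20, SE 0.60, edgeR adjusted p = 0.119). It was called without CTCF Pita 1 (1.88, adjusted p = 0.0307) and without triple 1 (1.70, adjusted p = 0.0297). For the other 8 no removal of a library ended a call. The median over the 9 genes was 3.25, against -0.05 over all genes, and 1.70 against -1.45 with library totals as scaling, under which lambdaTry was not called.

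AlphaTry and betaTry, which lie on either side of epsilonTry, did not follow each other. There were 1.35 and 0.968 alphaTry reads per betaTry read in CTCF-mutant larvae, 0.114 and 0.111 in CTCF Su(Hw) larvae, 1.83 and 3.51 in CTCF Pita larvae, 0.966 and 0.89 in triple-mutant larvae, and 0.17 and 0.277 in wild type. This ratio does not depend on the scaling of a library. It was lower in both libraries of CTCF Su(Hw) larvae and of wild type than in all 6 of the other libraries. As a share of the reads of the 10 genes, betaTry took 39.6% and 40.2% in CTCF Su(Hw) larvae, 11.9% in both libraries of CTCF-mutant larvae, 13.3% and 7.74% in CTCF Pita larvae, 7.84% and 9.19% in triple-mutant larvae, and 18.1% and 20.2% in wild type. AlphaTry took 24.4% and 27.2% in CTCF Pita larvae, its highest share, against 3.08% and 5.58% in wild type. EpsilonTry took 34.0% to 58.1% in every library.

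**Figure D4:**
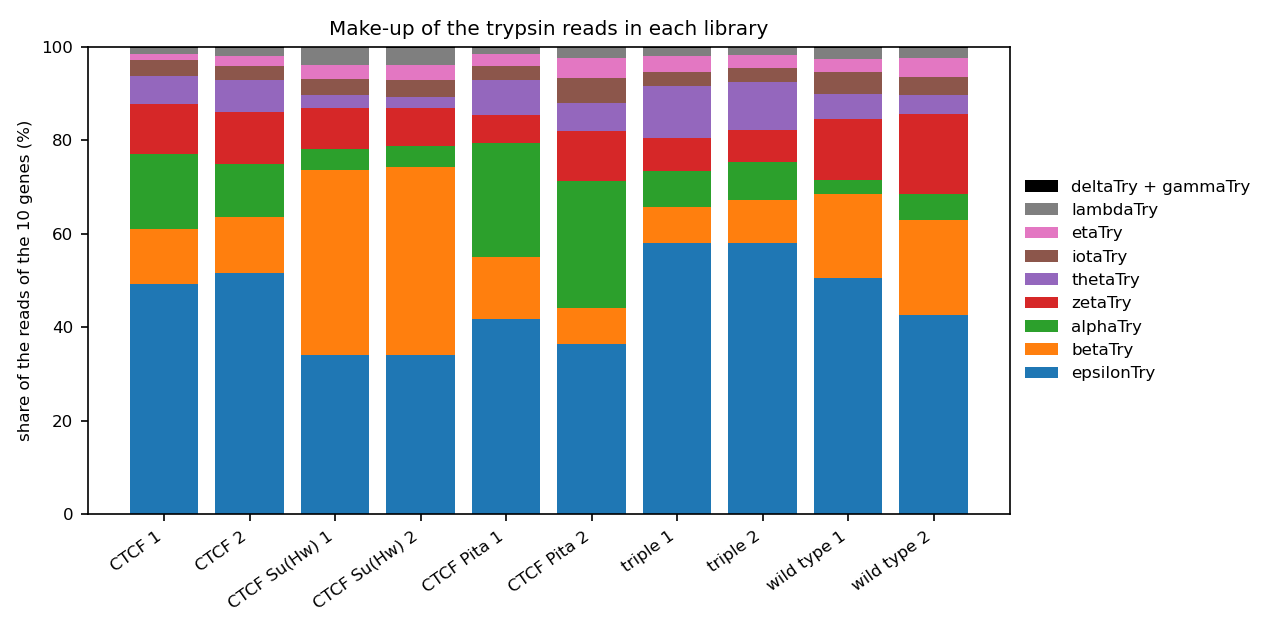
Share of the reads of the 10 trypsin genes taken by each gene in every library, in percent, for the CTCF, CTCF Su(Hw), CTCF Pita and triple mutants and wild type. BetaTry is widest in CTCF Su(Hw) larvae (39.6% and 40.2%) and alphaTry in CTCF Pita larvae (24.4% and 27.2%).

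Over the 10 libraries the log2 levels of epsilonTry and thetaTry had a Pearson correlation of 0.96, and zetaTry and iotaTry one of 0.92. The gene closest to alphaTry was thetaTry (0.79), and the one closest to betaTry was lambdaTry (0.64), while alphaTry and betaTry had -0.09. The points share a library and its scaling, so these values are a description. Outside the list, the genes closest to the mean profile of the 9 trypsin genes, of 5996 searched, were Jon65Aiii (0.979), a Jonah protease gene, Dpm3 (0.971), Dph5 (0.970), Jon99Cii (0.968), another Jonah gene, and cni (0.968), each over 10 libraries. KappaTry, the further trypsin gene inside the cluster, had 32.3 and 32.8 CPM in CTCF Su(Hw) larvae, 25.9 and 35.1 CPM in CTCF Pita larvae and 95.8 and 67.0 CPM in CTCF-mutant larvae. It was called lower in both steps (log2 fold change -1.32, SE 0.28, edgeR adjusted p = 0.00406, and -1.41, SE 0.29, edgeR adjusted p = 0.00278). In triple-mutant larvae it had 23.9 and 37.8 CPM, and it was not called against either double mutant (adjusted p = 0.834 and 0.9875). In the interaction, the Su(Hw) step on the CTCF Pita background minus that on the CTCF background, kappaTry was called above 0 (1.31, SE 0.40, edgeR adjusted p = 0.0214), and this call stood under 11 of 18 alternatives. In CTCF Pita larvae it was also called lower than in wild type, which had 65.7 and 39.2 CPM (-0.78, SE 0.28, edgeR adjusted p = 0.0499), which stood under 5 of 18 alternatives.

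Other protein-digesting enzymes of the gut were counted by the same tests. Of 16 Jonah genes, which encode chymotrypsin-like or related serine proteases of the larval gut, 13 were called lower in CTCF Su(Hw) than in CTCF-mutant larvae and none higher, 12 were lower in CTCF Pita than in CTCF-mutant larvae and none higher, and 12 were higher and 2 lower in triple-mutant than in CTCF Su(Hw) larvae. In the interaction 14 of 16 were called above 0 and none below, with a median of 2.99, and Jon44E had the largest value (6.00, SE 0.52, edgeR adjusted p = 9.35e-05). Jon44E averaged 5448 CPM in triple-mutant larvae, against 215 CPM in CTCF Su(Hw) larvae. With library totals as scaling 1 Jonah gene was called higher and 8 lower in the step to CTCF Su(Hw) larvae. In the step to CTCF Pita larvae 4 were then higher and 8 lower. The Jonah counts in the steps also changed with single libraries. They were 8 lower without CTCF 1 or CTCF Su(Hw) 2 in the step to CTCF Su(Hw) larvae, and 8 lower without CTCF 1 or CTCF Pita 1 in the step to CTCF Pita larvae. In triple-mutant over CTCF Su(Hw) larvae 5 were called higher and none lower without CTCF Su(Hw) 2, and 5 higher and 1 lower without CTCF Su(Hw) 1. In the interaction 13 or 14 Jonah genes were called above 0 and none below under 17 of 18 alternatives, and 12 above and 2 below with library totals as scaling.

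Of 13 other gut serine protease genes, kappaTry among them, 2 were called higher and 6 lower in CTCF Su(Hw) than in CTCF-mutant larvae, 2 higher and 7 lower in CTCF Pita than in CTCF-mutant larvae, and 9 higher and 1 lower in triple-mutant than in CTCF Su(Hw) larvae. Against wild type 2 were higher and 2 lower in CTCF Su(Hw) larvae, and 3 higher and 1 lower in CTCF Pita larvae. In the interaction 8 were called above 0 and 1 below (median 2.62). Of 8 carboxypeptidase genes 4 were called lower and none higher in the step to CTCF Su(Hw) larvae, 6 lower and none higher in the step to CTCF Pita larvae, and 3 higher and 1 lower in triple-mutant over CTCF Su(Hw) larvae. In the interaction 5 were above 0 and none below (median 2.46). In triple-mutant over CTCF Su(Hw) larvae these counts were small without single libraries, with 1 other serine protease gene called without CTCF Su(Hw) 2 and 1 carboxypeptidase gene without CTCF Su(Hw) 1. With library totals as scaling 4 other serine protease genes were called higher and 3 lower in the step to CTCF Su(Hw) larvae. In the step to CTCF Pita larvae 4 were higher and 2 lower. The carboxypeptidase median in the step to CTCF Su(Hw) larvae was -0.86 with TMM factors. With library totals it was 0.21, against 1.12 over all genes. The shares of all genes called in these comparisons are those given above.

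**Figure D5:**
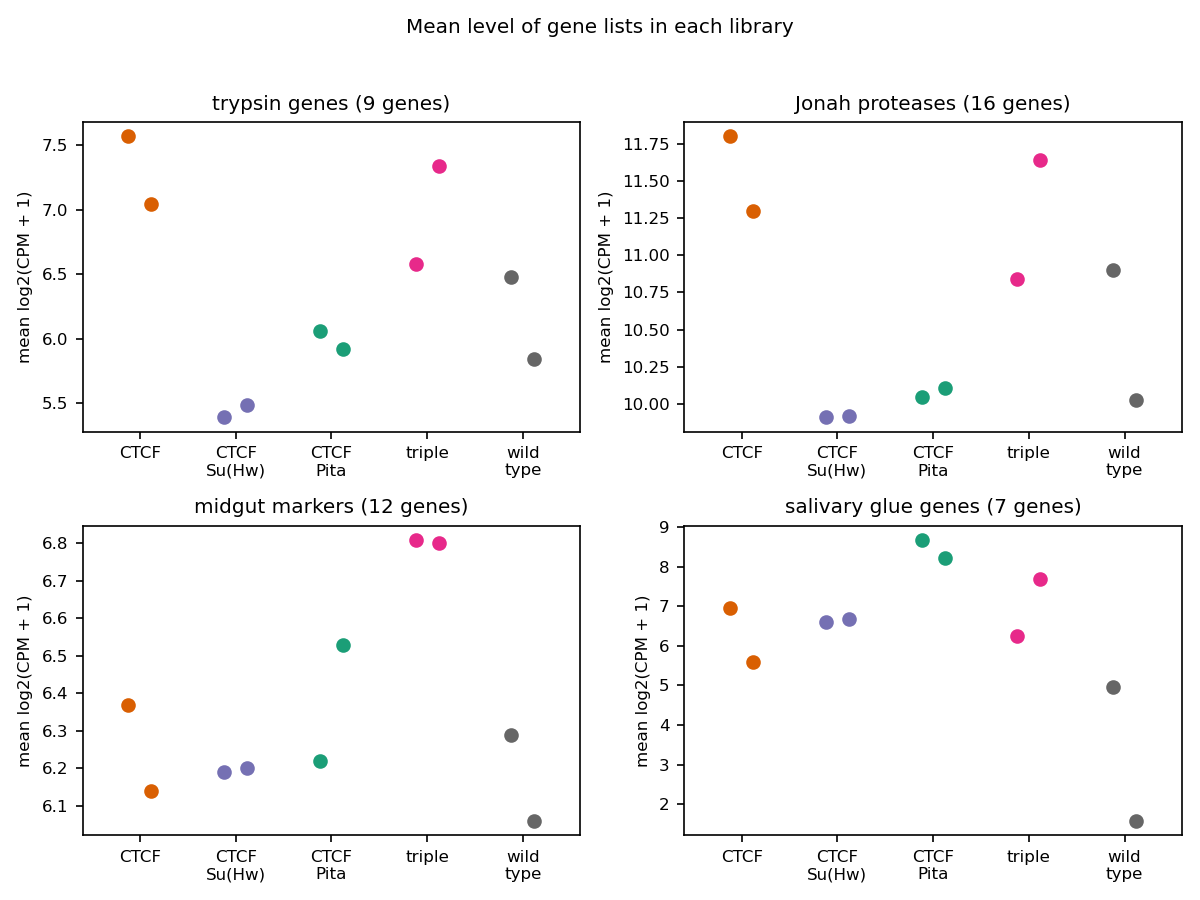
Mean log2(CPM + 1) of the tested genes of each list in every library (points), for the CTCF, CTCF Su(Hw), CTCF Pita and triple mutants and wild type, with a scale per panel. The trypsin panel has its lowest points in CTCF Su(Hw) larvae, and the midgut marker panel its highest in triple-mutant larvae (6.80 and 6.81).

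Midgut markers had a smaller median in the interaction than the protease lists. Of all genes tested, 23.2% were called above 0 in the interaction and 22.1% below. Of 12 markers, which include brush-border, septate-junction and peritrophic matrix genes, 4 were called above 0 and 1 below there, with a median of 0.68, against 0.02 in CTCF Su(Hw) over CTCF-mutant larvae. Their summed level was 3419 and 2568 CPM in CTCF-mutant larvae, 1713 and 1728 CPM in CTCF Su(Hw) larvae, 3186 and 3346 CPM in CTCF Pita larvae, 4857 and 6119 CPM in triple-mutant larvae, and 3998 and 3581 CPM in wild type. This sum was mostly Peritrophin-15a, a gene of the peritrophic matrix, which had 777 and 782 CPM in CTCF Su(Hw) larvae, against 3028 and 2738 CPM in wild type. The other 11 markers summed to 1065 and 975 CPM in CTCF-mutant larvae, 936 and 946 CPM in CTCF Su(Hw) larvae, 903 and 1146 CPM in CTCF Pita larvae, 1482 and 1486 CPM in triple-mutant larvae, and 970 and 843 CPM in wild type. Without Peritrophin-15a the sum in CTCF Su(Hw) larvae lay within the range of wild type, CTCF-mutant and CTCF Pita larvae. In CTCF Su(Hw) larvae against wild type 1 marker was called higher and 2 lower, beside 15.8% and 17.4% of all genes tested. The higher one was mesh (log2 fold change 0.91, edgeR adjusted p = 0.0054). The lower ones were Peritrophin-15a (-1.89, edgeR adjusted p = 0.000397) and Peritrophin-A (-0.74, edgeR adjusted p = 0.00912). No marker was at 0 reads in any library. With library totals as scaling the median of the markers in the interaction was -0.76, against -1.45 over all genes. Salivary glue genes, expressed late in the last larval instar, had a mean log2(CPM + 1) of 6.96 and 5.60 in CTCF-mutant larvae, 6.60 and 6.67 in CTCF Su(Hw) larvae, 8.68 and 8.21 in CTCF Pita larvae, 6.25 and 7.68 in triple-mutant larvae, and 4.95 and 1.58 in wild type.

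Markers of other tissues moved in some of these comparisons, for which the shares of all genes called are given above. Of 6 fat body markers 5 were called lower and 1 higher in CTCF Pita than in CTCF-mutant larvae, and 3 lower and 1 higher in CTCF Su(Hw) than in CTCF-mutant larvae. Of 5 muscle markers 4 were lower in CTCF Pita than in CTCF-mutant larvae, and 5 were lower in triple-mutant larvae than in wild type. Of 5 neuronal markers 4 were higher in CTCF Su(Hw) than in CTCF-mutant larvae, 3 were lower in triple-mutant than in CTCF Su(Hw) larvae, and 5 were below 0 in the interaction. Among them was brp, which encodes a protein of the presynaptic active zone. It averaged 95.6 CPM in CTCF Su(Hw) larvae, against 7.20 CPM in wild type (log2 fold change 3.73, SE 0.21, edgeR adjusted p = 2.16e-06). In CTCF-mutant larvae brp averaged 6.40 CPM, so the higher neuronal sum in CTCF Su(Hw) larvae was mostly this gene. Syt1 averaged 87.8 CPM in CTCF Su(Hw) larvae, against 50.9 CPM in CTCF-mutant larvae, and cac 7.40 against 2.89 CPM. The summed level of the neuronal markers was 90.6 to 92.5 CPM in CTCF-mutant larvae, 230 to 251 CPM in CTCF Su(Hw) larvae, 126 to 135 CPM in CTCF Pita larvae, 87.6 to 103 CPM in triple-mutant larvae and 106 to 112 CPM in wild type. That of the muscle markers was 43002 to 49446 CPM in CTCF-mutant larvae, 28106 to 29597 CPM in CTCF Su(Hw) larvae, 18272 to 20155 CPM in CTCF Pita larvae, 19376 to 20042 CPM in triple-mutant larvae and 42994 to 43136 CPM in wild type. The fat body markers summed to 69256 to 76722 CPM in CTCF-mutant larvae, 48054 to 49035 CPM in CTCF Su(Hw) larvae, 39077 to 41627 CPM in CTCF Pita larvae, 32448 to 38357 CPM in triple-mutant larvae and 48338 to 56628 CPM in wild type. No marker of these 3 lists was at 0 reads in any library. Over the 18 alternatives 4 or 5 neuronal markers were below 0 in the interaction. The fat body markers called lower in the step to CTCF Pita larvae were 1 to 5 and the muscle markers 1 to 5, and the muscle markers lower in triple-mutant larvae than in wild type were 2 to 5. The part of midgut content, the other tissues and developmental stage in the trypsin results was not tested.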

How the data were processed

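The authors deposited 1 table of raw counts per gene and library, in the layout of STAR's gene counts, with an unstranded and 2 strand columns. Per the submitters' processing notes, cutadapt, STAR and dm6 were used. Versions, annotation and the handling of read pairs are not stated in these notes. Per the labels' protocols, mRNA was selected with oligo(dT) from 50 ng of total RNA and amplified for 12 PCR cycles. Counts are called reads. The 4 summary lines stayed out of all tests. Unstranded counts were used, in which a read over overlapping genes on opposite strands goes to neither gene.

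Groups came from the labels. Positions and gene names came from Ensembl release 115, which named 17597 of 17735 identifiers. Genes were kept by filterByExpr, scaled with TMM factors (0.553 to 1.35) and tested in 1 model of all 10 libraries with edgeR 4.0.16 in R 4.3.3 (quasi-likelihood F-test, two-sided, Benjamini-Hochberg over 10585 genes, called at 0.05). An exact permutation test of 2 libraries against 2 cannot go below p = 0.333. The p-values reflect library spread, which may be technical, estimated over all groups. If the CTCF Su(Hw) libraries are 1 RNA sample, the p-values are too small in every comparison, as all groups share the estimated spread. The limit of 3 reads that 0 reads allows covers counting error only. The SE is the absolute log2 fold change over the square root of F, so it includes the estimated spread between libraries. The code was tested on simulated data. The members, lists and comparisons were chosen with earlier results of these data known. All 10 members were named, with all genes inside the cluster, up to 3 called genes per list and comparison, and the 5 genes most alike with at least 10 CPM. The replicate numbers do not pair the libraries: correlations of same-numbered deviations ran from -0.16 to 0.18. The 18 alternatives were RLE factors, library totals, no filter on low counts, a replicate block, DESeq2 1.42.0, only the groups compared, the CTCF Su(Hw) libraries summed, strand columns summed (chosen after seeing the data) and each library left out.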

Additional observations from a re-analysis of the deposited data

Results flagged for a closer look

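The effect of the Su(Hw) mutation differed between the CTCF and the CTCF Pita background for 8 trypsin genes by the edgeR test of the interaction. The log2 values were 5.14 for thetaTry (adjusted p = 0.000251), 4.38 for epsilonTry (0.000388), 3.40 for zetaTry (0.000397), 3.37 for deltaTry (0.00345), 3.25 for alphaTry (0.00088), 2.72 for iotaTry (0.00297), 2.28 for etaTry (0.000623) and 1.78 for lambdaTry (0.00668). All 8 lay above 0.

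The strand columns, which the comparisons did not use, held reads over deltaTry and CG13202 that the unstranded column lacked. Summed over both strands, deltaTry had 192 and 184 reads in CTCF-mutant larvae, 12 and 26 in CTCF Su(Hw) larvae, 180 and 162 in CTCF Pita larvae, 269 and 169 in triple-mutant larvae, and 181 and 220 in wild type. The unstranded counts were 16 and 22 in CTCF-mutant larvae, 8 and 16 in CTCF Su(Hw) larvae, 12 and 5 in CTCF Pita larvae, 23 and 9 in triple-mutant larvae, and 17 and 17 in wild type. A read over both deltaTry and CG13202 goes to neither gene in the unstranded column and to 1 of them in each strand column, and CG13202 showed nearly the same strand sums (8 to 255 reads). For the other 8 tested trypsin genes the strand sum differed from the unstranded count by at most 1.47%. By strand sums deltaTry averaged 1.70 ± 0.921 CPM in CTCF Su(Hw) larvae and 30.2 ± 3.30 CPM in wild type (SD, n = 2 each), a log2 fold change of -4.14 (SE 0.30, edgeR adjusted p = 8.46e-06). CG13202 changed by -4.97 (SE 0.29, edgeR adjusted p = 1.88e-06), and these reads cannot be told apart between the genes. In triple-mutant larvae deltaTry averaged 29.4 ± 3.22 CPM by strand sums, a log2 fold change of 4.10 over CTCF Su(Hw) larvae (SE 0.30, edgeR adjusted p = 1.14e-05).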

How the results depend on the processing

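Of 828 recomputed log2 fold changes of the 46 calls, 731 stayed called and 97 did not, and none changed sign; 22 calls stood under all 18 alternatives. Numbers of trypsin genes called follow. The number called over all genes changed with the setting as well, and the cause of each change was not tested. With library totals 2 were called in CTCF Su(Hw) larvae against wild type, 1 in CTCF Pita larvae against wild type, 4 in CTCF Pita against CTCF-mutant larvae (3 lower and 1 higher, beside 7 lower and none higher with TMM factors) and 3 in triple-mutant against CTCF Pita larvae. Over all genes, in the same order, 3637, 3979, 7324 and 1230 were called, against 3520, 4001, 4664 and 1773 with TMM factors. Under library totals the median of all genes shifted by up to 1.12 in a comparison between groups and to -1.45 in the interaction. There betaTry turned to -0.31, kappaTry to -0.17 (1.31 with TMM factors) and the midgut marker mex1 to -0.17. With no filter 4 were called in CTCF-mutant larvae against wild type. Over all genes 733 were then called, against 357 with the filter. With only the groups compared in the model, 7 were called in CTCF Su(Hw) larvae and 2 in triple-mutant larvae against wild type. In triple-mutant against CTCF Pita larvae 2 were called. Over all genes 5030, 1277 and 463 were called in these comparisons, against 3520, 2248 and 1773 in the model of all 10 libraries. With the CTCF Su(Hw) libraries summed, 1 was called in CTCF-mutant larvae and 0 in CTCF Su(Hw) larvae against wild type (edgeR, 4 at an unadjusted p under 0.05), and 3 in triple-mutant against CTCF Pita larvae. Leaving out each library gave 1 to 3 for CTCF-mutant, 0 to 5 for CTCF Su(Hw), 1 to 4 for CTCF Pita and 2 to 5 for triple-mutant larvae against wild type, 5 to 8 and 3 to 8 for the steps from CTCF-mutant to CTCF Su(Hw) and CTCF Pita larvae, 4 to 6 and 0 to 6 for triple-mutant larvae against these, and 8 to 9 for the interaction. The library left in a group is then assumed to vary like the others. With a replicate block the counts were 2, 4, 3, 4, 7, 7, 6, 4 and 8 in the order of the report, so only zetaTry in triple-mutant against CTCF Pita larvae lost its call (adjusted p = 0.0546). DeltaTry rests on 5 to 23 reads per library, which limits its precision.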

Other observations

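Carbohydrate-digesting enzymes were counted by the same tests. Of 14 carbohydrase genes, which include the maltases, 8 were called higher and 1 lower in CTCF Su(Hw) than in CTCF-mutant larvae (median log2 fold change 0.94). In CTCF Pita against CTCF-mutant larvae 1 was higher and 3 lower, in triple-mutant against CTCF Su(Hw) larvae 3 were higher and 3 lower, and in triple-mutant against CTCF Pita larvae 7 were higher and none lower. In triple-mutant larvae 9 were higher and 2 lower than in wild type. In the interaction 2 were called above 0 and 3 below, with a median of 0.02. Of all genes tested, 20% were called higher and 21.4% lower in CTCF Su(Hw) over CTCF-mutant larvae. The shares were 21.4% and 22.6% in CTCF Pita over CTCF-mutant larvae, and 23.2% above and 22.1% below 0 in the interaction. For triple-mutant larvae they were 12.1% and 10.4% over CTCF Su(Hw), 9.87% and 6.88% over CTCF Pita, and 10.9% and 10.3% over wild type. A difference from the protease lists was not tested. The counts in CTCF Pita over CTCF-mutant larvae changed with the libraries and the scaling. Without CTCF 1 edgeR called 0, with 4 at an unadjusted p under 0.05, where DESeq2 on all libraries called 1 higher and 3 lower, and with library totals 10 were called higher. With library totals 7324 genes were called over all genes in this comparison. The median log2 fold change was then 1.12 over all genes and 1.23 over the carbohydrases. The maltase gene Mal-A7 averaged 26.3 CPM in CTCF Su(Hw) larvae, against 0.831 CPM in CTCF-mutant larvae (4.99, SE 0.40, edgeR adjusted p = 1.98e-05). The maltase gene Mal-A3 averaged 209 CPM in triple-mutant larvae, against 31.6 CPM in CTCF Su(Hw) larvae (2.72, SE 0.41, edgeR adjusted p = 0.00111), with an interaction of 4.06 (SE 0.56, edgeR adjusted p = 0.000463).

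Among 9 genes of food and nutrient signalling, sug, which encodes the sugar-responsive zinc-finger factor sugarbabe, was called lower than in wild type in the 3 genotypes that carry more than dCTCFdeltaCP. It averaged 13.1 CPM in CTCF Su(Hw) larvae, 26.4 CPM in CTCF Pita larvae and 30.1 CPM in triple-mutant larvae, against 72.1 CPM in wild type (log2 fold changes -2.46, -1.44 and -1.26, edgeR adjusted p = 6.54e-05, 0.00107 and 0.00294). Its interaction was 2.58 (SE 0.34, edgeR adjusted p = 0.000406). InR, the insulin receptor gene, was called higher in the same 3 genotypes (1.03, 1.55 and 1.06, edgeR adjusted p = 0.00326, 0.000314 and 0.00318). These calls of sug and InR against wild type stood under all 18 alternatives.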
